A study of Mus musculus with 18 samples.

Results

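Untreated primary myotube cultures were 4 of the 18 cultures of this series, chosen by their label alone, and each was measured on 1 array. They came from limb muscle of C57BL/10 mice aged 3 to 5 days and were given no siRNA. The 7 cultures that received an siRNA to dystrophin and the 7 that received an siRNA to firefly luciferase (GL2) were not used here. All 18 shared the strain, the tissue, the switch to differentiation medium on day 4 and the RNA extraction on day 6, after 48 h of differentiation. Homogenates of different mice were mixed on each of the 4 occasions on which cells of the series were prepared. The labels do not say from which occasion each array came. The 4 cultures are therefore replicates of cell mixtures, which may be the same or different ones, and not of single animals. The preparations contained whatever other cells of the muscle attached and survived.

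Myotubes form when myoblasts leave the cell cycle and fuse, under factors of the MyoD and MEF2 families, into multinucleated cells that build sarcomeres. Much of the muscle proteome exists as paralogs, with separate genes for embryonic, fast, slow, cardiac, smooth muscle and non-muscle forms. Cultured myotubes from newborn muscle are known for carrying developmental forms beside adult ones. The levels below show which forms were detected in the 4 untreated cultures.

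Values are mean bead signals on a linear scale, in arbitrary units and without background subtraction or normalization between arrays. They are given in the order of arrays 1, 2, 3 and 4. Unless a normalized value is named, the order of arrays stated for a gene includes differences between whole arrays. Normalized log2 values, where given, followed background correction and quantile normalization over the 4 arrays. A probe counted as detected where its detection p-value, against the negative control beads of its own array, was under 0.05. The lowest detected signal was 122 on array 1, 136 on array 2, 120 on array 3 and 126 on array 4. Of 46632 probes, 16246 were detected on all 4 arrays and 27041 on none. A gene counted as on where at least 1 of its probes was detected on all 4 arrays, and as off where no probe was detected on any. By this rule 9352 of 17762 named genes were on, which is 52.7%, and 7157 were off, which is 40.3%. The remaining 1253 genes, or 7.05%, lay between these states. Each gene is given by its brightest probe. The RNA was that of whole cultures, so fewer cells of a type and less RNA per cell cannot be told apart. A signal depends on the probe as well as on the transcript, so the order of signals between genes describes probes and not amounts of mRNA.

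Probes of 1 gene could differ widely. Ttn, which encodes the giant spring protein titin, had 13 probes in the files. The brightest of them read 27895, 30613, 32476 and 33018, and the dimmest read 80, 93, 81 and 82 and was never detected. Of the 5165 genes that were on and had more than 1 probe, 61.1% also had a probe that no array detected. An off gene is for the same reason only a gene that these probes did not detect. Pgk1, the phosphoglycerate kinase of glycolysis in nearly all cells, was off at 101, 92, 89 and 85.

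The 6 genes used to check the identity of the cultures were all on. Acta1, skeletal alpha actin, read 41354, 48290, 46580 and 41424, a mean of 44412 ± 3560 (SD, n = 4). Tnnt3, fast troponin T, read 31848, 37740, 36063 and 34872. Both were bright on every array, and array 1 was lowest for each before normalization. On the normalized log2 scale array 1 was lowest for neither. Acta1 was there at 15.48, 15.40, 15.48 and 15.36, and Tnnt3 at 15.10, 15.04, 15.13 and 15.13. Myh2, the type IIA myosin heavy chain, read 8161, 9617, 8132 and 8130. Myh7, the slow myosin heavy chain, read 5045, 5903, 6045 and 6050. Array 2 stood highest for Myh2, whereas array 1 stood lowest for Myh7. Des, the muscle intermediate filament desmin, read 2140, 3044, 2341 and 2335. Myog, the regulatory factor myogenin, read 779, 887, 836 and 821. The labelled cell type thus had its defining markers, from the sarcomere to the transcription factor, on all 4 arrays.

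Sarcomere and ribosomal protein genes filled most of the top of the signal scale. Of the 30 genes with the highest median signal, 11 were on the contractile list, 10 encoded ribosomal proteins and 9 belonged to neither group. The contractile genes were Tnnc1, Tpm2, Tnni2, Tnnc2, Actb, Actc1, Myl4, Acta2, Acta1, Myl1 and Myh8. The ribosomal protein genes were Rps20, Rpl13, Rps14, Rpl37, Rps29, Rpl41, Rpl23, Rps9, Rps21 and Rpl35. Gapdh, the glycolytic glyceraldehyde phosphate dehydrogenase, was the brightest named gene at 53041, 59083, 58736 and 58181. Its other probes were bright as well, with a lowest reading of 35350.

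The 9 others were Gapdh, the elongation factors Eef1g and Eef1a1, the ATP synthase subunit Atp5b, the fast calcium pump Atp2a1, the RNA-binding protein Ybx1, the galectin Lgals1, Igf2 and Cdkn1c. Igf2, the imprinted fetal growth factor, read 38572, 46559, 46014 and 50912. Cdkn1c, the cyclin-dependent kinase inhibitor p57, read 41467, 39811, 42923 and 44186. Before normalization, Igf2 was lowest on array 1 and highest on array 4, and Cdkn1c was the only gene of the 30 lowest on array 2. On the normalized log2 scale Igf2 was lowest on array 2, at 15.33, as were Tnnc1 and Tpm2 among others. The lower edge of the list was narrow, since the median of Cdkn1c was 42195 and that of Serpinh1, the collagen chaperone at rank 31, was 40855.

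The top signals moved together by array. Array 1 gave the lowest signal for 25 of the 30 genes and the highest for none, and array 2 gave the highest for 23. After background correction and quantile normalization over the 4 arrays, the SD of log2 signal was 0.02 for Gapdh and reached 0.18 at most, for Myh8. Among the 50 brightest probes, 23 had no gene name in the annotation used here, so the list covers named genes only.

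**Figure D1:**
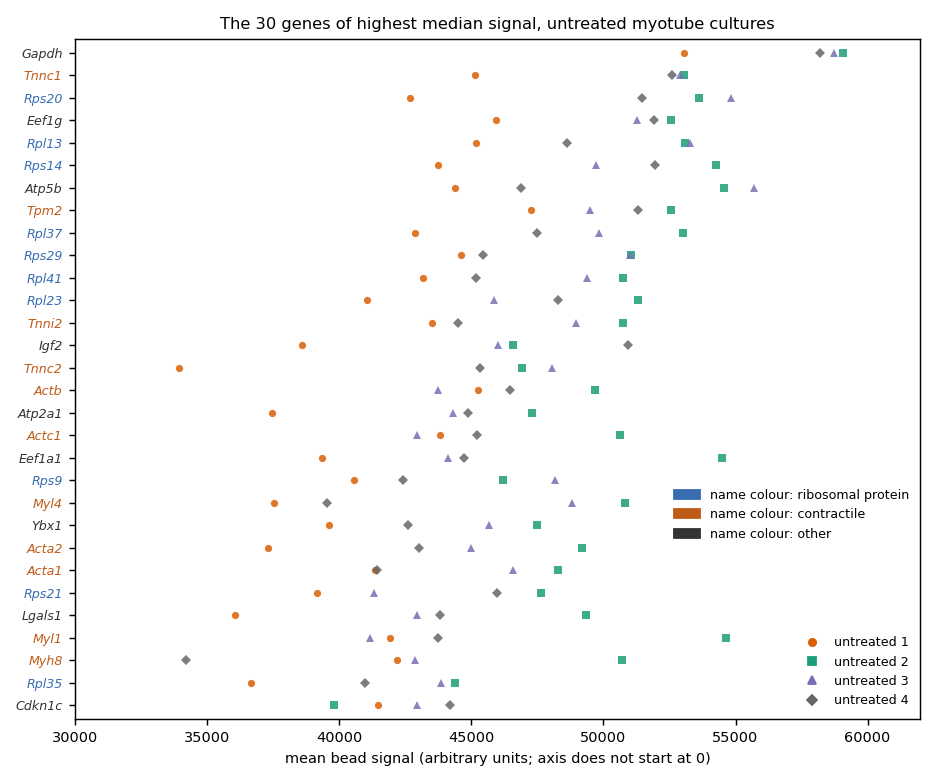
Mean bead signal (arbitrary units, on an axis that does not start at 0) of the 30 named genes with the highest median over the untreated arrays, 1 symbol per array, with gene names coloured by group. All signals lie between 33936 and 59083, and array 1 is lowest for 25 of the 30 genes.

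Promoter sequences are shown for 6 genes on which the descriptions below turn, namely a pair of bright muscle genes and 2 pairs of developmental and adult paralogs. They are the 250 bases before the annotated start of each gene in RefSeq, build GRCm38.p6, written 5′ to 3′ on the gene's strand. Capitals mark every CANNTG, the E-box that MyoD family factors are known to bind, and every TATAAA, written TTTATA where it lies on the other strand. The windows are chr8:123894776-123895025 on the minus strand for Acta1, chr7:19410844-19411093 on the plus strand for Ckm, chr11:67276874-67277123 on the plus strand for Myh8, chr11:67237562-67237811 on the plus strand for Myh4, chr1:87205561-87205810 on the plus strand for Chrng and chr11:70619195-70619444 on the minus strand for Chrne.
Acta1: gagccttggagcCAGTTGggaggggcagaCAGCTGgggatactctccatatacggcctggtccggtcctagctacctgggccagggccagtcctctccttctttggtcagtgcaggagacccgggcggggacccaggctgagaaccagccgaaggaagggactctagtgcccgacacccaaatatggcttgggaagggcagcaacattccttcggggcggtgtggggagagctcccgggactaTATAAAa
Ckm: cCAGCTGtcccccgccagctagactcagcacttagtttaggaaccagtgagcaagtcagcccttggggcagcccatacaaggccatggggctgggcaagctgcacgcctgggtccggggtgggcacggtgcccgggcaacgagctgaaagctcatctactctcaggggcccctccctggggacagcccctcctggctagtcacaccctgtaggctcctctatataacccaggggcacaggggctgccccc
Myh8: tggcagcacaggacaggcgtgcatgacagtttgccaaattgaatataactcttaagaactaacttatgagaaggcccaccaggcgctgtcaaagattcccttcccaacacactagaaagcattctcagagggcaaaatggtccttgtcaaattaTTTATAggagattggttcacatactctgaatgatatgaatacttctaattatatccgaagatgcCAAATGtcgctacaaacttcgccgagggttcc
Myh4: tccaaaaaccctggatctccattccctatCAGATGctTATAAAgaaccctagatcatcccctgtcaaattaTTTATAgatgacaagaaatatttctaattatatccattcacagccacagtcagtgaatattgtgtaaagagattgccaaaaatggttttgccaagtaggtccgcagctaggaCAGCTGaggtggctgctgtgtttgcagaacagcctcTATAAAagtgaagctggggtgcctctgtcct
Chrng: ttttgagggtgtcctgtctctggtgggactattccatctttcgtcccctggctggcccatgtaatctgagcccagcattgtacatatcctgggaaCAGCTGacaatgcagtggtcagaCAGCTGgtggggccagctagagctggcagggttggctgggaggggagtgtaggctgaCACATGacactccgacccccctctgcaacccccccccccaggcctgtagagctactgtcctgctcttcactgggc
Chrne: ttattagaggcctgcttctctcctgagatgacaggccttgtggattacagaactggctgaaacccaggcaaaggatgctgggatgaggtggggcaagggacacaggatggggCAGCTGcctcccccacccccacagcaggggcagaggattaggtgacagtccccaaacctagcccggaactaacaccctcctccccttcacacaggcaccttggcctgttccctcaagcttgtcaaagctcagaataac

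Myh8 and Myh4 lie near each other on chromosome 11, and their windows shared a run of 17 bases, tgtcaaattatttatag. It began 106 bases before the start of Myh8 and 189 bases before that of Myh4. The longest run shared by Chrng and Chrne had 8 bases. CAGCTG, which is a form of CANNTG and was counted within it, occurred in 5 of these 6 windows and was missing from that of Myh8.

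E-boxes were common in all promoters. CANNTG, which reads alike on both strands, was present in 66.2% of the 32851 windows of the table, CAGCTG in 13.0% and TATAAA on either strand in 12.4%. For contractile genes that were on, 46 genes had 52 windows, of which 78.8% held CANNTG, 32.7% CAGCTG and 19.2% TATAAA. For the 9 contractile genes that were off, the shares of 13 windows were 76.9%, 23.1% and 0.0%. Channel genes that were on held CAGCTG in 24.4% and TATAAA in 4.4% of 45 windows, and those that were off in 26.3% and 10.5% of 38. The order of the TATAAA shares between genes on and off was thus opposite in the contractile and the channel genes. CAGCTG was thus more frequent than in all windows both for genes that were on and for genes that were off. Windows of 1 gene overlap, the sets were not tested, and a match to these letters is not a bound site.

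Contractile genes were mostly on. Of 69 measured genes in 16 families, 59 were on, 1 lay between and 9 were off, so that 85.5% were on against 52.7% of all genes. The median signal over all 69 was 4517, against 149 over all 17762 genes. Of the 15 families with more than 1 measured member, 9 had every member on and 6 had members in both states. Probes of near-identical paralogs can bind each other's transcripts, which was not tested.

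Among striated myosin heavy chains the perinatal form gave a bright signal, and the adult fast forms IIX and IIB were dim. Myh8, the perinatal heavy chain, read 42188, 50690, 42862 and 34184, a mean of 42481 ± 6744 (SD, n = 4). Myh4, the type IIB chain of adult fast fibres, read 179, 181, 161 and 149. Myh1, the type IIX chain, read 142, 163, 172 and 136. Myh4 and Myh1 were thus detected on every array but stayed just above the limit of each. A further probe of Myh8 read only 115 to 143 and was detected on 3 arrays, so the reading rests on 1 probe. Myh6, the alpha chain of the atrium, was off at 75, 78, 90 and 90. Of the non-muscle and smooth muscle chains, Myh9 and Myh10 were on, Myh11 was dim at 133 to 157, and Myh14 was off. The embryonic chain Myh3 was not analysed here.

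Light chains of developing and of slow muscle stood beside the fast form. Myl1, the alkali light chain of fast fibres, read 41935, 54629, 41167 and 43751. Myl4, the embryonic and atrial light chain, read 37531, 50807, 48821 and 39527. Both were highest on array 2 before normalization, and neither had an array near the detection limit. A further probe of Myl1 read 13757 to 17416. That of Myl4 read only 315, 418, 441 and 457, so its bright reading rests on 1 probe. On the normalized log2 scale Myl4 was highest on array 3, at 15.53. Myl2 and Myl3, the regulatory and essential chains of slow fibres and of the ventricle, read 7049 to 9914 and 1060 to 1328. Myl7, the atrial regulatory chain, was off at 86 to 114. Atrial Myl4 and atrial Myl7 therefore differed in detection.

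All 5 measured actins were on. Actc1, cardiac alpha actin, which developing skeletal muscle also expresses, read 43827, 50628, 42939 and 45202. Acta2, the smooth muscle alpha actin, read 37311, 49174, 44994 and 43030. Both were highest on array 2 before normalization, whereas on the normalized log2 scale Actc1 was highest on array 1, at 15.55. Actc1 had a further probe at 10459 to 12670, and Acta2 had further probes that ranged from 4939 at most down to 2 that were never detected. Actg2, the enteric smooth muscle actin, read 1343 to 1712.

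Troponins of fast, slow and cardiac type were on together. For troponin C, Tnnc1 of slow and cardiac muscle read 45150, 53061, 52899 and 52583, and Tnnc2 of fast muscle read 33936, 46928, 48058 and 45309. For troponin T, slow Tnnt1 ranged from 28126 to 34461, cardiac Tnnt2 from 33672 to 38064 and fast Tnnt3 from 31848 to 37740. For troponin I, fast Tnni2 ranged from 43498 to 50724 and slow Tnni1 from 32749 to 39195. Cardiac Tnni3 was the exception among the 8 genes, at 203, 213, 218 and 226. It was detected on every array but was dim, whereas cardiac Tnnt2 was bright.

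Other thin and thick filament families had all members on or a clear split. Tropomyosins Tpm1, Tpm2, Tpm3 and Tpm4 were all on, with Tpm2, of slow and fast fibres, at 47244, 52574, 49506 and 51292. All 4 alpha actinins were on, namely the muscle forms Actn2, at 33735 to 42960, and Actn3, at 8217 to 11065, and the non-muscle forms Actn1 and Actn4. A further probe of Actn2 read only 199 to 234, and that of Actn3 read 850 to 1020. The myosin binding proteins of slow and fast muscle, Mybpc1 and Mybpc2, ranged from 12960 to 14927 and from 1262 to 1399. The other probes of Mybpc1 read only 155 to 257. Cardiac Mybpc3 was off at 100 to 119. Among tropomodulins and leiomodins, which cap or start thin filaments, the muscle forms Tmod1, Tmod4 and Lmod3 and the ubiquitous Tmod3 were on. Tmod2 of neurons, Lmod1 of smooth muscle and Lmod2 were off. Nebl, the cardiac relative of nebulin, was off, and Neb itself read 268, 296, 302 and 316.

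Intermediate filament genes were on for all 5 listed members. Vim, vimentin of mesenchymal cells and of immature muscle, read 25100, 29081, 30234 and 27766. Nes, nestin of immature muscle, read 1435 to 1861, next to Des at the values above. Small heat shock genes, several of which protect the sarcomere, were on for 7 of 7 members. Cryab, alpha B crystallin, read 26279, 33561, 30218 and 29517, and Hspb3 read 2346 to 3017.

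**Figure D2:**
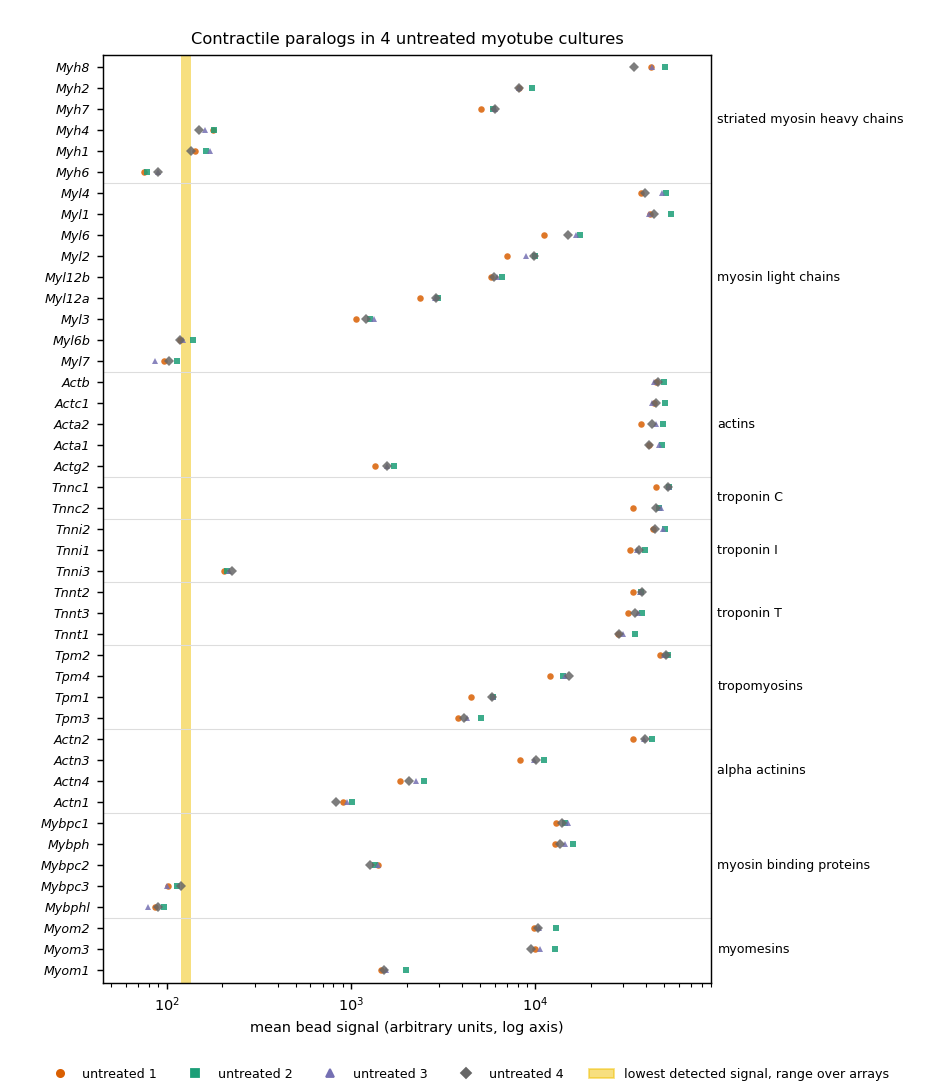
Mean bead signal (arbitrary units, log axis) of the measured members of 10 contractile families, 1 symbol per untreated array, with the band showing the lowest detected signal of the arrays. Myh8, Myl1, Myl4 and the actins other than Actg2 lie to the right, whereas Myh6, Myl7, Mybpc3 and Mybphl lie left of or at the band.

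Most of the listed metabolic genes were on. Of 94 measured genes, 68 were on, 3 lay between and 23 were off, so that 72.3% were on against 52.7% of all genes. The median signal over all 94 was 727, against 149 over all genes. Of 30 families with more than 1 measured member, 14 had all members on, 11 had members in both states and 2 had no member on.

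Creatine kinase, which buffers ATP, was on in its muscle and its brain form. Ckb, the brain form, read 12364, 11256, 12021 and 11815. Ckm, the muscle form, read 7688, 6199, 6038 and 6166. Array 1 was highest for both, and for Ckm the other arrays lay between 6038 and 6199. Ckmt2, the mitochondrial form of muscle and heart, was on at 2440 to 2928, and Ckmt1, the ubiquitous mitochondrial form, was off at 86 to 99.

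In glycolysis the muscle paralogs Pfkm, Eno3, Pgam2, Pkm, Ldha and Aldoa were all on, with no reading of a brightest probe below 19861. A further probe of Pfkm read only 285 to 472, and 1 of Pkm read 248 to 311. Eno3, the muscle enolase, read 20917, 27608, 24264 and 23706. The liver phosphofructokinase Pfkl, at 6061 to 7722, and the platelet form Pfkp, at 720 to 1047, were on as well, as were the neuronal enolase Eno2 and the brain aldolase Aldoc. Paralogs of other tissues that were off included Pklr of liver and red cells and Ldhc, Pgk2 and Gapdhs of the testis. Hexokinases Hk1 and Hk2 were on, and Hk3 was dim at 250 to 313.

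Glucose transporters were on for 3 of 4 members. Slc2a1, the transporter GLUT1 of most cells, read 3438, 2161, 2082 and 2266. Slc2a4, the insulin-regulated GLUT4 of adult muscle and fat, read 451, 559, 502 and 522. Array 1 stood above the others for Slc2a1 and below them for Slc2a4. Slc2a2 of liver was off. The monocarboxylate transporters, which move lactate, were dim or off, with Slc16a3 at 164 to 182 and Slc16a1 and Slc16a7 off.

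In oxidative metabolism the muscle subunits of cytochrome oxidase were on beside the general ones. Cox6a2, the muscle subunit, ranged from 24697 to 32028, and Cox6a1, the general one, from 10537 to 12712. Cox8b of muscle ranged from 9337 to 11532 and Cox8a from 12979 to 14293, while Cox8c of testis was off. Among carriers that exchange ADP and ATP across the mitochondrial membrane, the general Slc25a5 read 15940 to 16718. Slc25a4, the form of heart and muscle, read 185, 183, 166 and 148. It was thus detected on all arrays but stayed near the limit.

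Fatty acid binding was represented by the muscle form. Fabp3, of heart and muscle, read 20812, 20250, 20411 and 20857. Its 4 values lay close together. Fabp5 was dim at 198 to 305, and Fabp1, Fabp2, Fabp4 and Fabp7 were off. Cpt1b, the carnitine palmitoyltransferase of muscle, was on at 1314 to 1445, whereas liver Cpt1a was detected on 2 arrays. Ucp1 of brown fat and Ucp3 of muscle were both off.

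Carbonic anhydrases were on for 4 of 9 members. Car3, the carbonic anhydrase of slow muscle and fat, read 8137, 12934, 12252 and 10879, and Car1, Car2, Car4, Car8 and Car14 were off. Adssl1, the muscle adenylosuccinate synthase, ranged from 10226 to 10931 and the general form Adss from 142 to 157. All 3 AMP deaminases were on, with the muscle form Ampd1 at 2769 to 3416, Ampd2 at 334 to 420 and Ampd3 at 1278 to 1815. Eef1a2, the elongation factor that replaces Eef1a1 in adult muscle, ranged from 1104 to 1301, while Eef1a1 read 39353, 54490, 44107 and 44725. Rpl3l, the muscle form of a ribosomal protein, was on at 594 to 659.

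Of 20 channel and calcium-handling families with more than 1 measured member, 12 had members in both states. How often groups of other genes of the same sizes split was not counted. Of 101 measured genes, 49 were on, 14 lay between and 38 were off, so that 48.5% were on, near the 52.7% of all genes. The median over all 101 was 135, near the 149 of all genes. The families were chosen to include paralogs of nerve and heart, so what follows concerns single genes.

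The calcium release machinery was on in its skeletal form. Ryr1, the calcium release channel of skeletal muscle, read 6874, 8170, 8014 and 8030, and all 4 of its probes were on. Ryr2 of heart read 78 to 87 and Ryr3 read 84 to 107, and both were off. Only the skeletal receptor was detected among the 3 measured here. Atp2a1, the SERCA1 pump of fast fibres, read 37443, 47285, 44285 and 44868, and Atp2a2, the SERCA2 pump of slow fibres and heart, read 23302 to 25063. Fast Casq1 and slow and cardiac Casq2, which store calcium, ranged from 4986 to 6554 and from 4677 to 7697. Both calsequestrins were lowest on array 1. The pump regulators were not on, since phospholamban (Pln) was off at 110 to 114 and sarcolipin (Sln) was detected on 2 arrays.

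Subunits of the skeletal calcium channel that senses voltage were on where measured. Cacng1, the skeletal gamma subunit, read 3750, 4492, 4781 and 5223. Cacna2d1, the subunit of muscle, read 6616, 4763, 6380 and 6223. Array 2 was the lowest for Cacna2d1, whereas array 1 was the lowest for Cacng1. Cacnb1, the muscle beta subunit, ranged from 1019 to 1125. The pore gene Cacna1s was not analysed here. Of the other 9 pore genes, Cacna1c, Cacna1g, Cacna1h and Cacna1i were on, none above 373, and 5 were off. Jph1 and Jph2, which tie the surface membrane to the sarcoplasmic reticulum in muscle, were on at 368 to 471 and 1036 to 1569.

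Among transcripts of the muscle acetylcholine receptor, that of the fetal subunit gave the brightest signal, and the receptor protein was not measured. Chrng, the fetal gamma subunit, read 12780, 18285, 16843 and 15453. Chrne, the epsilon subunit that replaces it at the adult synapse, read 130, 201, 183 and 175. Every array detected both, array 1 was lowest for both, and Chrne stayed close to the detection limit. A further probe of Chrng read only 216, 283, 220 and 245, so its bright reading rests on 1 probe. Chrnb1 and Chrnd ranged from 2129 to 2541 and from 1261 to 1974. Chrna1, the alpha subunit that every muscle receptor needs, read 133, 175, 152 and 110 and was detected on 3 arrays. Of 11 neuronal subunits only Chrna10 was on, at 224 to 271, and 7 were off.

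Other channels were mostly dim or off. Scn7a read 1659, 2040, 1907 and 1540 and Scn3a, a sodium channel of nerve, read 460 to 495, while the skeletal sodium channel Scn4a was not analysed here. Clcn1, the chloride channel of adult skeletal muscle, read 175, 166, 159 and 173. Kcnc4, at 1888 to 2122, was a potassium channel that was well above the limit. Kcna6 was on at 461 to 496, and 4 of 7 Kv1 genes were off. Sodium pump beta subunits were on for 4 of 4, among them Atp1b4 of perinatal muscle at 2311 to 3098.

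**Figure D3:**
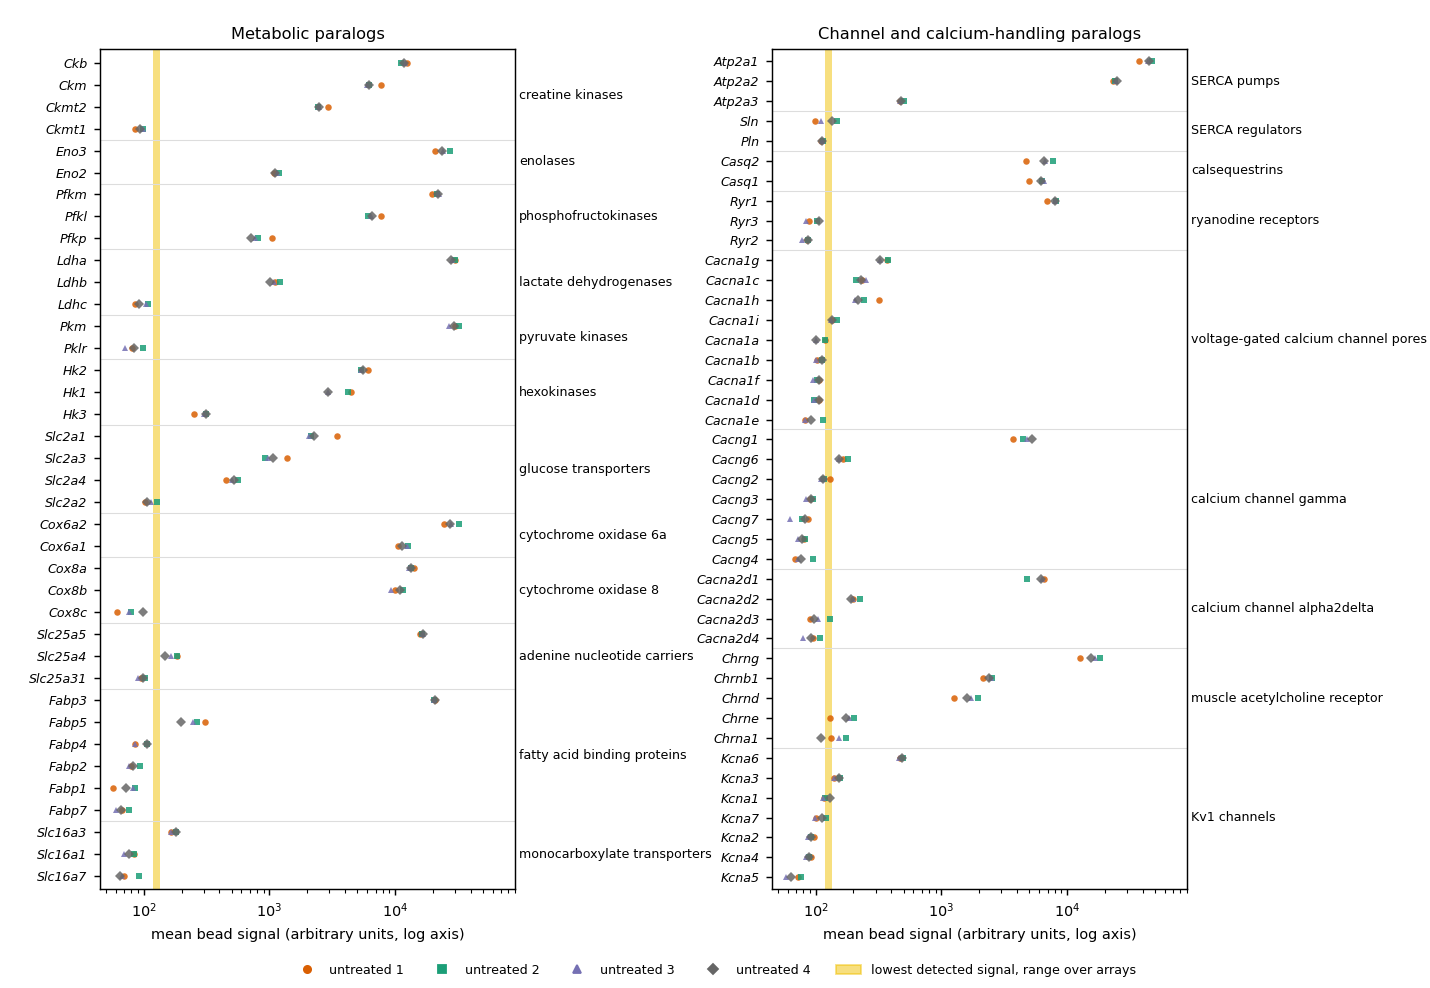
Mean bead signal (arbitrary units, log axis) of members of metabolic families, left, and of channel and calcium-handling families, right, 1 symbol per untreated array, with the band showing the lowest detected signal of the arrays. Ryr1 and Chrng, each shown by its brightest probe, lie far to the right of Ryr2, Ryr3 and Chrne. Slc2a1 is higher on array 1, at 3438, than on the other arrays.

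Genes of muscle identity were on for 40 of 55 measured members, or 72.7% against 52.7% of all genes, and 9 were off. Of the regulatory factors, Myf6 (MRF4), which acts late, read 2986, 3072, 3273 and 3134, and Myod1 read 244, 348, 294 and 213. Myf5, a factor of myoblasts, was off at 81 to 100. Mef2c, the MEF2 factor of muscle, read 13868, 13286, 14526 and 14689. Mymk, the membrane protein that fuses myoblasts, read 3332, 4207, 3569 and 3588. Mstn, the growth inhibitor myostatin, was off at 58 to 74, and Dlk1, a fetal and imprinted gene, read 23370 to 28129.

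Of 19 measured genes of the dystrophin complex, which links the cytoskeleton to the matrix, and of its relatives, 12 were on, or 63.2% against 52.7% of all genes. Dmd, dystrophin, read 1268, 1250, 1372 and 1379 on its brightest probe, the values lying close together. Another of its 5 probes read 228 to 283, and the other 3 were never detected. Utrn, the relative utrophin, read 352 to 424. Dag1, dystroglycan, read 10484, 10245, 10207 and 10387. The sarcoglycans Sgca, Sgcb and Sgcd and sarcospan (Sspn) were on, whereas Sgce and Sgcz of other tissues were off. Of 6 syntrophins and dystrobrevins, which bind dystrophin inside the cell, 3 were on, namely Sntb2, Dtna and Dtnb. Nos1, the neuronal nitric oxide synthase that binds the complex in adult muscle, was off at 79 to 98. At the neuromuscular junction, Rapsn was on at 2515 to 2657, Musk was detected on 3 arrays and Colq was off.

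Markers of cells other than myotubes were on for 57 of 103 measured genes, or 55.3%, near the 52.7% of all genes, but they split by cell type. Lists for fibroblasts, macrophages, endothelium, smooth muscle and tendon were on in most members, and lists for blood cells, hepatocytes, mast cells and cardiomyocytes in few or none. In RNA of a whole culture, fewer cells of a type and less RNA per cell cannot be told apart, and the part of these cells in the muscle readings was not tested.

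Fibroblast markers were on for 9 of 9, with summed signals from 59899 on array 1 to 86884 on array 2. Col1a1, type I collagen, read 25034, 40661, 32956 and 31773. Dcn, the matrix proteoglycan decorin, read 13172, 17492, 17168 and 15129. Pdgfra, a receptor of mesenchymal progenitors, read 2831 to 3433. Array 1 was lowest for each of these. Tendon, cartilage and bone markers were on for 8 of 9. Scx, the tendon factor scleraxis, read 4117, 4964, 4899 and 4732, and Tnmd, tenomodulin, read 1267, 1867, 2186 and 1992.

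Macrophage markers were on for 8 of 8, with summed signals of 11451 to 15808. Lyz2, lysozyme of myeloid cells, read 4795, 6566, 6680 and 6935. Fcer1g, an Fc receptor chain, read 4109, 6151, 5683 and 6060. Both were again lowest on array 1. Adgre1, which encodes F4/80, read 655 to 730, and Cx3cr1 read 408 to 571. Lyz2 also had 2 probes that were never detected, and Adgre1 and the listed Aif1 had 1 each. Endothelial markers were on for 7 of 8 but dim, with no reading above 452, and Tie1 was off.

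Smooth muscle and pericyte markers were on for 8 of 10, but the list includes Acta2, which differentiating skeletal muscle also expresses, and Myh11, and both are on the contractile list too. Cnn1 was off at 69 to 101. Cspg4 and Pdgfrb of pericytes read 703 to 870 and 884 to 1087. Schwann cell markers were on for 4 of 6, with Sox10, the neural crest factor, at 809, 951, 818 and 799. Gfap and S100b were off. Adipocyte markers were on for 3 of 7, with Adipoq, adiponectin, at 472, 584, 684 and 668, whereas Fabp4, Lep and Retn were off. The lists of these last 2 cell types therefore did not move as a block.

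Satellite cell and myoblast markers were on for 3 of 7, or 42.9% against 52.7% of all genes. Pax7, the defining factor of satellite cells, was off at 98 to 104, and Calcr was off too. Vcam1 and Sdc4, which other cells also express, were on at 1615 to 1742 and 1885 to 2167. Erythroid markers were on for 0 of 4 and mast cell markers for 0 of 5. Lymphocyte markers were on for 1 of 6, neuronal markers for 2 of 7, keratinocyte markers for 2 of 5, hepatocyte markers for 1 of 6 and cardiomyocyte markers for 1 of 6. The cardiomyocyte gene was Tnni3, and the list's Myh6, Myl7 and Ryr2 were off as described above. Nppa and Nppb, the natriuretic peptides of the heart, were not on.

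**Figure D4:**
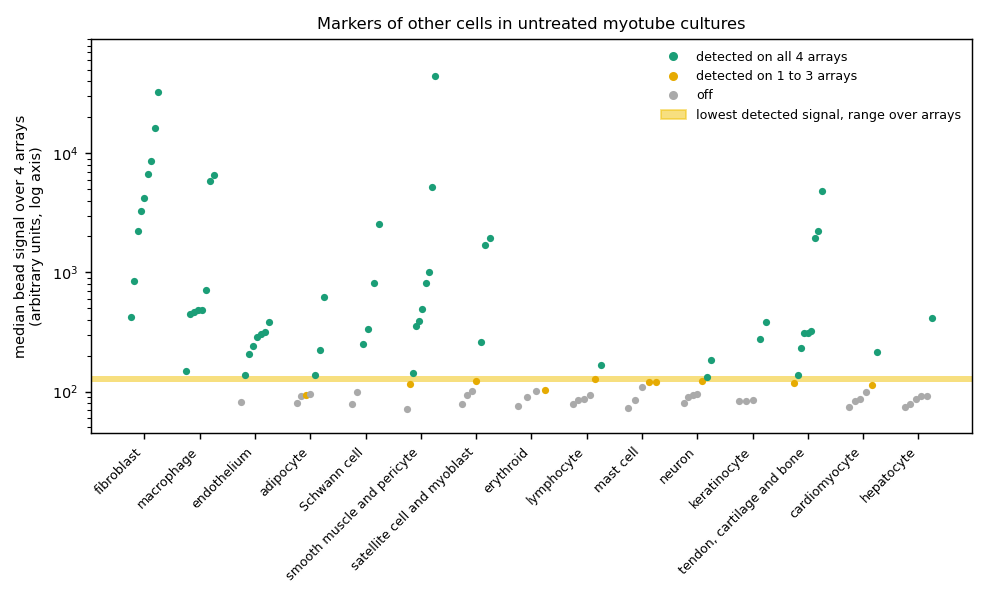
Median bead signal over the untreated arrays (arbitrary units, log axis) of each measured marker of 15 other cell types, coloured by detection, with the band showing the lowest detected signal of the arrays. All 9 fibroblast and all 8 macrophage markers are above the band, whereas no erythroid or mast cell marker is on.

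Genes of cell cycle exit and of division were on together. Cdkn1a, the inhibitor p21 that myotubes carry, read 22764, 29108, 27388 and 25724. Of 10 measured proliferation genes 9 were on, or 90.0% against 52.7% of all genes. Cdk1 read 757, 871, 978 and 906 and Mcm5 read 1441 to 1896. The summed signal of these 10 was 6403 on array 1 and 8088 to 8457 on the others. Ccna2 was off at 69 to 87. Atrophy genes were on for 6 of 6, against the same 52.7%, with the ubiquitin ligases Fbxo32 and Trim63 at 231 to 284 and 222 to 263. Of 6 measured interferon response genes 4 were on, or 66.7% against 52.7% of all genes, and none read above 533.

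Transcripts of both sexes were present. Xist, the X-inactivation RNA of female cells, read 2409, 1265, 1849 and 1748. Eif2s3y, of the Y chromosome, read 263, 478, 477 and 414. Array 1 had the highest Xist and the lowest Eif2s3y. Both were detected on every array, in cultures made from mixed homogenates of several mice.

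The study discusses 33 genes for dystrophin knockdown, a list it chose on arrays that include these. All were on at baseline, against 52.7% of all genes. Most of them were reported as lower after knockdown than in untreated cultures, so their detection here was largely set by that choice. Their median signals ran from 162 to 26556. Pvalb, the calcium buffer parvalbumin of fast fibres, read 3550, 3707, 3500 and 4011. Prox1, a factor of slow fibre fate, read 193, 206, 215 and 228, and Phkg1 read 156 to 178. Myoz1, a fast-fibre Z-disc protein, read 4787 to 5522 and Capn3, a muscle calpain, read 557 to 770. Prox1, Phkg1, Chrne and Map3k9 were thus measured near the detection limit, and Tcap, Pfkm and Cdkn1a far above it.

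The 4 cultures were close to each other. The correlation of normalized log2 signal over all probes was 0.986 to 0.988 between any pair of arrays, which is across probes and not across replicates. Over the 9352 genes that were on, the median SD of normalized log2 signal was 0.14 (n = 4), and 56 genes, or 0.599%, had an SD over 0.5. Of those 56, 40 had a median signal under 200. The count was 10 on genes detected at p under 0.01, 1 without background correction and 122 without array 3. The median SD was 0.23 for genes under 200 and 0.08 for genes over 10000, and without background correction these values were 0.10 and 0.08.

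The 15 genes of largest spread were Cxcl14, Lgr5, Dhrs13, Sfxn5, Dnajb9, Sp1, N4bp2l2, Fam83d, Fos, Ccl25, Apoc1, Jam3, Mtus2, Bptf and Mtmr4. Cxcl14, a chemokine, read 160, 342, 264 and 254, with an SD of 0.72. Lgr5, a receptor for R-spondins, read 141, 247, 256 and 187, with an SD of 0.71. Both were lowest on array 1. Fos, an immediate early gene, read 1122, 521, 645 and 607, with an SD of 0.62, and was highest on array 1. Fos was the only gene of the 15 that read above 342 on any array.

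With quantile normalization alone, an alternative without background correction that was added after the data were seen, other genes led, and the lists of 15 shared only Cxcl14 and Fos. Mfap4, a matrix microfibril protein, read 3869, 8069, 4029 and 3858. Sfrp1, a secreted Wnt antagonist, read 677, 1545, 1337 and 1132. Mfap4 stood high on array 2 alone, and Sfrp1 stood low on array 1. Egln3, a prolyl hydroxylase that senses oxygen, read 4335, 2723, 2730 and 2984. Mgarp, a mitochondrial protein, read 3649, 2195, 2407 and 2323. Array 1 was thus the highest for both, as it was for Slc2a1 and Xist, which were also among these 15.

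Further listed genes, picked out after their values were seen, stood highest on array 1. Pdk1, which inhibits pyruvate dehydrogenase, read 2310, 1881, 1765 and 1743. Pfkp read 1047, 816, 771 and 720, and Slc2a3, the transporter GLUT3, read 1383, 919, 968 and 1068. Car9 and Car12, membrane carbonic anhydrases, read 356, 296, 230 and 269, and 1464, 987, 1076 and 1096. For all 5 genes array 1 lay above every other array, while before normalization array 1 was lowest for most of the brightest genes.

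**Figure D5:**
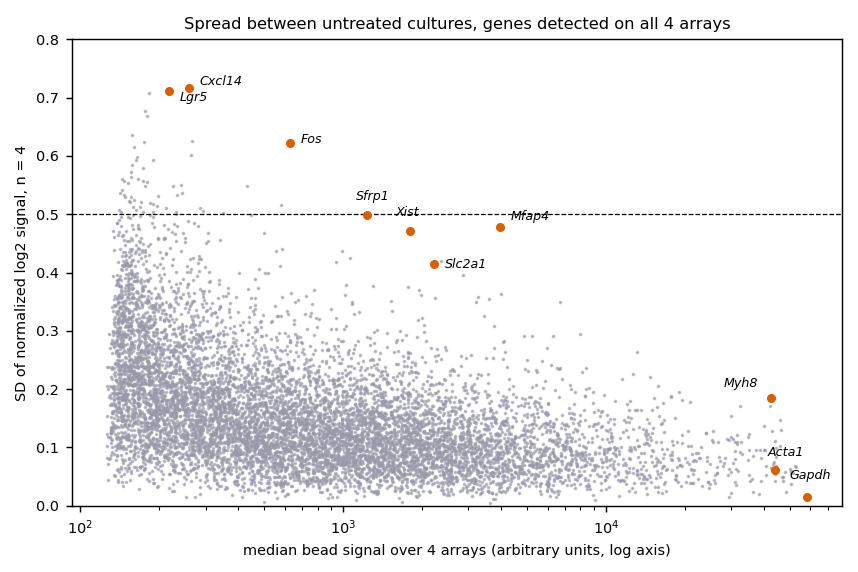
SD of normalized log2 signal over the untreated arrays (n = 4) against median bead signal (arbitrary units, log axis), 1 point per gene detected on all arrays, with a dashed line at an SD of 0.5. The largest values lie at low signal, and Gapdh, Acta1 and Myh8 lie at 0.02, 0.06 and 0.18.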

How the data were processed

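Total RNA of the 4 untreated cultures was amplified and hybridised to Illumina MouseWG-6 arrays, 1 array per culture. The intensity values used here are the mean bead signals the authors exported from BeadStudio and deposited on a linear scale, with no background subtraction. The detection p-values, also deposited by the authors, compare each probe with the negative control beads of its array. A second deposited table holds intensity values that the authors corrected for background, quantile normalized over all 18 arrays with lumi, and stored on a linear scale, and it served as an alternative. A genome build is not given in the sources used here.

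Of 46632 probes, 29976 had 1 gene symbol in the platform annotation, 75 took a name from the study's own probe lists through the gene ID (Myh7 among them), 10 had several symbols and the rest had none, which left 16581 unnamed. The detected state (p under 0.05) and the state of each gene were set as defined above. Spread was the SD of log2 signal after RMA-type background correction and quantile normalization over the 4 arrays, on genes detected on all 4 (Python 3.11.15, numpy 2.4.6, pandas 2.3.3). These values differed from the authors' by a median of 0.10 on the log2 scale. The steps were checked on simulated data. No groups were compared, since only 1 was used, and Dixon's rule for 1 value apart from the others was the only test applied. The number of arrays limits the precision, and the spread may be technical in part.

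Named were the 30 brightest genes, members of paralog families, the 15 genes of largest spread, markers of other cells and the genes the study discusses. Members and gene lists were chosen with earlier results of these data known. Alternatives were a detection p under 0.01, the brightest probe alone, other scales and leaving out each array. Promoter windows were taken from RefSeq (GRCm38.p6). Genes without a named probe were not analysed here.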

Additional observations from a re-analysis of the deposited data

Results flagged for a closer look

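Of 360 genes looked at, 28 had 1 of the 4 arrays far from the others on the normalized log2 scale, which is 7.78%. Over all 9352 genes that were on the share was 5.80%, and chance alone gives about 1 in 20. The 360 include 26 genes named only for their spread, of which 4 were among the 28, and without them 24 of 334 genes, or 7.19%, had an array apart. A gene was taken up where the gap between its highest or lowest array and the nearest other array exceeded Dixon's critical share of the whole range for 4 samples. In 14 of the 28 the array apart was array 1, in 7 of them high and in 7 low. The split by array is not given here for all 9352 genes. The share of array 1 is therefore not shown to be particular to the genes looked at.

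Array 1 was high for several metabolic genes. Ampd3, an AMP deaminase, was at 10.84 against 10.20 to 10.26 on the others. Pfkp was at 9.99 against 9.34 to 9.40, Pdk1 at 11.20 against 10.67 to 10.73 and Ldha at 15 against 14.76 to 14.78. Eef1a2, Smtn and Adss were at 10.34, 12.42 and 6.07, each above the other arrays. Array 1 was low for Chrne, at 5.46 against 6.47 to 6.62, although every array detected it. It was also low for Serpina12, a serpin, at 8.97 against 9.79 to 9.89, and for Pdk4 at 10.95 against 11.20 to 11.24. Chrnb1 and Fn1 were low there at 11.08 and 12.53, and the dim genes Sfxn5 and Fam83d at 5.19 and 5.28.

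Array 2 was high for Mfap4, at 12.88 against 11.90 to 11.98, and for Myom1 and Pecam1, at 10.80 and 8.03. It was low for Myf6 at 11.46 and for Pgam2 at 14.53. Array 3 was low for Cox8b and Oasl2, at 13.15 and 6.22, and high for Ctss at 6.14. Array 4 was high for Aif1, Emcn, Slc16a3 and Kcna3, at 8.79, 8.03, 6.56 and 6.06, and low for Ky and Kcnj2, at 11.12 and 5.65.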

How the results depend on the processing

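Of 86 alternative values for 14 counts, 79 stayed within 1.5 times the value given, and the 7 that did not all concern the genes with an SD over 0.5. That count was 56 as given. It was 3 on log2 signal with no background correction and no normalization, 1 with quantile normalization alone, 10 on genes detected at p under 0.01 and 2044 with no filter on detection. Leaving out each array in turn gave 69 to 122, and the count was 96 without array 2, 122 without array 3 and 105 without array 4. The count therefore depends on the background correction, the detection filter and the arrays included, whereas the authors' values gave 65. Within that limit the detection threshold still moved the counts of members. At p under 0.01, channel genes on fell from 49 to 39 and those off rose from 38 to 56. Metabolic genes on fell from 68 to 60. Over all genes, those on fell from 9352 to 7939 and those off rose from 7157 to 9092. Leaving out arrays moved the counts of members on by 2 at most, and 28 or 29 of the 30 brightest genes remained. With the mean over a gene's detected probes in place of its brightest probe, 21 of the 30 remained. No paired analysis was possible because only 1 group was used. Near 120 to 136, where detection begins, neither the order of genes nor an off state says how much transcript was present.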
